A study of Mus musculus with 9 samples.

Results

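The 10 genes Nfe2l2, Keap1, Bach1, Mafg, Mafk, Hmox1, Nqo1, Fth1, Ftl1 and Slc7a11 form the regulator and iron-heme branch of the NRF2 pathway. They were taken by symbol from the 41388 genes of the murine RNA-Seq table, and each symbol matched 1 row. The RNA came from Tc17 cells, CD8+ T cells that make IL-17, which were grown from naive CD62L+CD44-CD8+ cells sorted from lymph node and spleen of C57BL/6 mice. All cultures were activated for 2 days with anti-CD3 and anti-CD28 in the presence of 50 U/ml IL-2, 0.5 ng/ml TGF-β, 30 ng/ml IL-6 and anti-IFN-γ. The 3 conditions had 3 libraries each, numbered as replicates 1 to 3: the solvent DMSO at 0.2% (Ctrl), 20 µM dimethyl fumarate (DMF), and 20 µM DMF with 50 µM glutathione (DMF + GSH). Replicate 1 of each group was prepared in batch 1 and replicates 2 and 3 in batch 2. The study describes its experiments in general as done on independent biological replicates. Whether these libraries came from separate mice or from separate cultures is not stated for the RNA-Seq, and the p-values measure the spread between the libraries. The labels name the solvent alone for Ctrl, and DMF or DMF with GSH as additions to it. They name no deletion of NRF2 in any group, so that the comparisons are between treatments and not between NRF2 genotypes.

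NRF2, encoded by Nfe2l2, is a transcription factor that is held at a low level because KEAP1 brings it to a CUL3 ubiquitin ligase for degradation. Electrophiles such as DMF modify cysteines of KEAP1, and NRF2 protein then escapes degradation, pairs with a small MAF protein (MAFG, MAFK or MAFF) and binds antioxidant response elements of its target genes. BACH1 pairs with the same small MAF proteins on such elements and represses genes of heme and iron metabolism until heme removes it. HMOX1 (heme oxygenase 1) breaks down heme and sets iron free, FTH1 and FTL1 are the heavy and light chains of ferritin, which stores iron, NQO1 reduces quinones, and SLC7A11 (xCT) imports cystine for the synthesis of glutathione. Since NRF2 and KEAP1 are regulated mainly as proteins, mRNA levels of Nfe2l2 and Keap1 do not measure NRF2 activity.

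Promoter sequence was examined because the small MAF genes and Nfe2l2 are themselves described as carrying antioxidant response elements. RefSeq windows (GRCm38.p6) were found for 9 of the 10 members, all but Hmox1, and Fth1 had windows at 2 start sites. In the 250 bases before the start, the core TGACNNNGC was searched on both strands, and it occurred in 3 of the 10 windows, against 10.2% of all 32851 windows. The 3 windows with a match are printed 5′ to 3′ along the gene, with the match in capitals. A match is a description of letters and not a measured binding site.
Mafg, chr11:120633548-120633797, reverse strand, match on the opposite strand starting 222 bases upstream: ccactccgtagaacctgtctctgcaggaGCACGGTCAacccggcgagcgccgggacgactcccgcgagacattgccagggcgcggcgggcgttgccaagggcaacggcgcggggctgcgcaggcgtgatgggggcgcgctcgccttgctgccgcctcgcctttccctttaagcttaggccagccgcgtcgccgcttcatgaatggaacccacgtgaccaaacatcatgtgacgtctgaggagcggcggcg
Mafk, chr5:139791286-139791535, forward strand, match on the opposite strand starting 13 bases upstream: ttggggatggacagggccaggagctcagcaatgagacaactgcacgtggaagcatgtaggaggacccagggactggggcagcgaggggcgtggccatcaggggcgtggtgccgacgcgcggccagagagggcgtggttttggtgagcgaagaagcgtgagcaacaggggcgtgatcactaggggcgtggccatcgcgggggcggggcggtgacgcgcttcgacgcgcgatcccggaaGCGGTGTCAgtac
Nfe2l2, chr2:75704664-75704913, reverse strand, match on the gene's strand starting 240 bases upstream: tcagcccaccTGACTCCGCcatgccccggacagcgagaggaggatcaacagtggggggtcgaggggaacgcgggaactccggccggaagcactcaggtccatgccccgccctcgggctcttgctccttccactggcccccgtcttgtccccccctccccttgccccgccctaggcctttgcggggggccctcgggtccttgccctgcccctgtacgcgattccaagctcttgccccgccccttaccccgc

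The ferritin genes carry a further control in their mRNA, the iron-responsive element, a stem-loop ahead of the coding sequence through which iron regulatory proteins block translation when iron is scarce. Both sites were found in the GENCODE vM21 transcripts as the letters CAGTG flanked by 5 complementary bases on each side, 1 base after the G completing the loop. The same pattern was also found in Keap1, after the start codon, so that the search is not specific to ferritin. The ferritin sites lie before the start codon, and the 6 loop bases are in capitals. They are shown because ferritin protein is set in part at this step, which mRNA counts do not record.
Fth1, chr19:9982732-9982759, forward strand: ttcctgcttcaaCAGTGCttgaacggaa
Ftl1, chr7:45459780-45459807, reverse strand: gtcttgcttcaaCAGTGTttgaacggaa

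The libraries held 7671772 to 14511926 reads, and the deposited values are read counts divided by a factor for each library (normalised read counts). Markers of T cells were high throughout, with Cd8a at 9317 to 13778 and Cd3e, a chain of the T cell receptor complex, at 3781 to 5711, whereas Cd4 stayed at or under 4.4. The summed level of 8 T cell markers was 35719 to 40995 in Ctrl, 34763 to 40071 with DMF and 35556 to 42816 with DMF + GSH. Of these 8, Cd8a was higher with DMF than in Ctrl and Cd3g, Trac and Lck were lower at an adjusted p under 0.1 (limma), where 19.9% of all genes tested were higher and 18.3% lower. Between DMF + GSH and DMF, 4 were higher and 0 lower, where 15.7% and 17.6% of all genes were. With libraries blocked by replicate number, the counts for DMF against Ctrl were 2 higher and 5 lower (27.2% and 24.8% of all genes), and those for DMF + GSH against DMF were 5 higher and 2 lower (23.5% and 25.3%). The part of these T cell markers in the members' changes was not tested. Ctrl replicate 3 stood apart from the others in 3 markers of macrophages, Lyz2, Csf1r and C1qa. Of 8 markers of macrophages and dendritic cells 7 were in the table. Their summed level was 79.0 to 287 in Ctrl, 58.2 to 73.6 with DMF and 89.5 to 95.03 with DMF + GSH. Of the 7, Lyz2 and Cd68 reached the minimum for testing, and Cd68 was lower with DMF than in Ctrl (log2FC −0.47, adjusted p = 0.0703, limma), though not without Ctrl replicate 3 (−0.39, adjusted p = 0.156). Between DMF + GSH and DMF, Cd68 had a log2FC of 0.40 (adjusted p = 0.125, limma) and passed with libraries blocked by replicate number (adjusted p = 0.0806). The part of Cd68 in the members' changes was not tested. The highest sum was that of Ctrl replicate 3, in which Lyz2 (lysozyme) reached 119 and Csf1r (the receptor for macrophage colony-stimulating factor) 58.3, against at most 10.7 and 5.83 in the other 8 libraries. C1qa, a complement gene of macrophages, was at 11.4 there and at 0 in both of the other Ctrl libraries. The other 4 markers did not set this library apart in the same way, since Cd68 was at 82.5 there and at 69.6 and 69.7 in the other Ctrl libraries, Cd14 and Fcgr1 were both at 4.27 against at most 3.72 elsewhere, and Itgax was lower, at 7.11, than in Ctrl replicate 2, at 15.8. The members' changes between DMF and Ctrl are therefore also given without this library. Of 4 granulocyte markers, S100a8 and S100a9 were at 0 in all libraries, and the summed level of the 4 was 7.11 to 10.4 in Ctrl, 0 to 1.71 with DMF and 2.97 to 4.86 with DMF + GSH, mostly from Ly6g. The groups did not overlap in this sum. The 2 NK cell markers summed to 0.929 to 4.16 in Ctrl, 0 in all DMF libraries and 0 to 2.2 with DMF + GSH. The 4 B cell markers summed to 68.3 to 91.97, 58.1 to 80.5 and 60.3 to 89.8 in these groups, with overlap, and Cd79b, the only one tested, did not pass between DMF and Ctrl (log2FC −0.16, adjusted p = 0.58, limma). The part of these markers in the members' changes was not tested. Of 6 erythroid markers, the 4 globin genes were at 0 in all libraries, and the sum of the 6 was at most 4.65.

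Expression was compared by limma on log2(normalised count + 1) with preparation batch as a covariate. The 11599 genes whose mean reached 10 were tested, with p-values adjusted over all of them (adjusted p). Of the 10 members 9 were tested, and Slc7a11, with a mean of 7.07, was below this minimum. Nqo1, with a mean of 10.9, reached it only through the DMF libraries (group means of 9.72 in Ctrl, 14.6 with DMF and 8.27 with DMF + GSH), so that its being highest with DMF is in part a condition of being tested, and counts and medians over the 9 are descriptions. Between DMF and Ctrl, Mafg, Mafk and Ftl1 were higher with DMF at an adjusted p under 0.1, and no member was lower. This is 3 of 9 tested members, where 19.9% of all genes tested were called higher and 18.3% lower by the same rule. No member passed the stricter threshold of an adjusted p under 0.01 with an absolute log2 fold change (log2FC) of at least 0.75, which 2.89% of all genes passed. At an unadjusted p under 0.05, 3 members differed by limma, as did 4811 of the 11599 genes tested. The stricter rule also called 0 members by edgeR and by DESeq2 on the recovered reads, where it called 338 and 554 of all genes. The median log2FC of the 9 members was 0.22, with 7 values above 0, and that of all genes tested was 0.01. In 2 of the 9, Mafg and Ftl1, every DMF library lay above every Ctrl library, which was so for 21.6% of all genes tested.

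**Figure D1:**
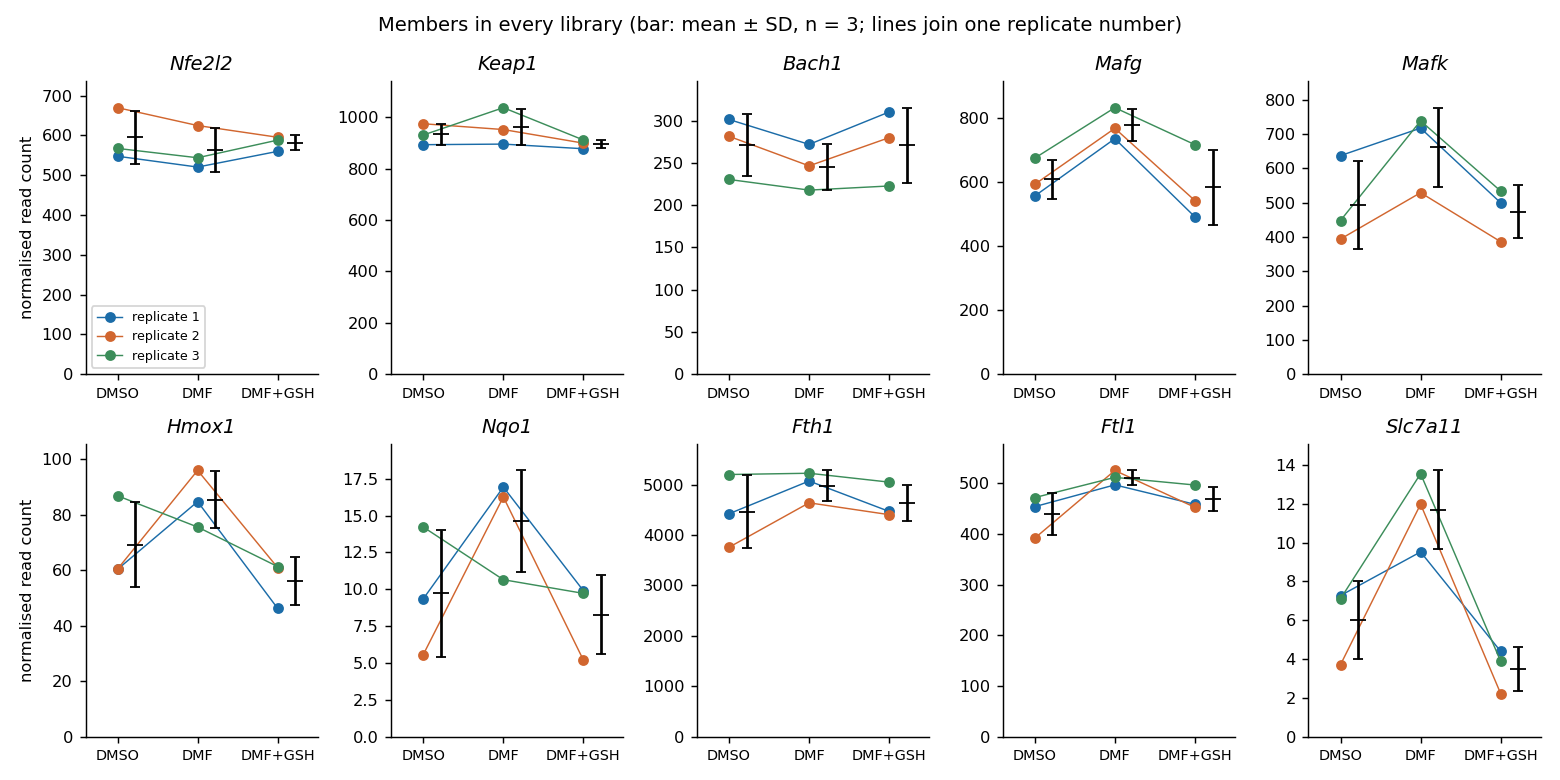
Normalised read counts (vertical axis, starting at 0) of the 10 members in the 3 conditions, with 1 point per library and lines joining libraries of the same replicate number. Bars give the mean ± SD (n = 3). Mafg rises with DMF in all 3 replicate numbers and is lower again in the DMF + GSH libraries, whereas Nfe2l2 and Keap1 stay within narrow ranges.

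The sensor pair showed no difference past either threshold. Nfe2l2 (ENSMUSG00000015839, chr2:75675513-75704641, reverse strand) was at 548, 670 and 567 normalised read counts in Ctrl replicates 1, 2 and 3, at 520, 625 and 544 with DMF and at 560, 595 and 588 with DMF + GSH. The groups overlapped, although each DMF library was slightly below the Ctrl library of its number. The log2FC between DMF and Ctrl was −0.08 (95% interval −0.28 to 0.12, adjusted p = 0.532, limma), which corresponds to a fold of 0.947 with bounds of 0.826 and 1.09. Keap1 (ENSMUSG00000003308, chr9:21229730-21239361, reverse strand) was at 894, 975 and 931 in Ctrl, at 896, 953 and 1038 with DMF and at 878, 900 and 912 with DMF + GSH. Its groups overlapped as well, with a log2FC of 0.04 (95% interval −0.11 to 0.19, adjusted p = 0.666, limma). The bounds of its fold were 0.928 and 1.14. Without Ctrl replicate 3 the log2FC were −0.14 for Nfe2l2 (adjusted p = 0.286, limma) and 0.02 for Keap1 (adjusted p = 0.836, limma). Keap1 shares 3317 bases with the antisense gene Gm16754, whose mean was 28.7, and since the library kit does not mark strand, reads of both cannot be told apart there.

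Bach1 (ENSMUSG00000025612, chr16:87698945-87733346, forward strand), the repressor, was at 301, 282 and 230 in Ctrl, at 272, 246 and 218 with DMF and at 310, 280 and 223 with DMF + GSH. In all 3 groups replicate 1 was the highest and replicate 3 the lowest, and the groups overlapped. Within each number the DMF library was the lowest, by 0.15, 0.19 and 0.08 on the log2 scale against Ctrl. The log2FC of −0.14 (95% interval −0.41 to 0.13) did not pass (adjusted p = 0.41, limma), nor did the −0.21 found without Ctrl replicate 3 (adjusted p = 0.229).

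The small MAF genes, whose proteins are the shared partners of NRF2 and BACH1, were the members with the lowest adjusted p between DMF and Ctrl with all libraries. Mafg (ENSMUSG00000051510, chr11:120625117-120633600, reverse strand) was at 557, 594 and 676 in Ctrl and at 736, 769 and 833 with DMF, and returned to 492, 543 and 718 with DMF + GSH. All DMF libraries lay above all libraries of the other groups. The paired log2 differences between DMF and Ctrl were 0.40 in replicate 1, the only replicate of batch 1, and 0.37 and 0.30 in replicates 2 and 3 of batch 2. The log2FC was 0.36 (SE 0.111, adjusted p = 0.0381, limma), a fold of 1.28 (95% interval 1.08 to 1.52). The call was lost without Ctrl replicate 1 (adjusted p = 0.112, limma), Ctrl replicate 2 (adjusted p = 0.138), DMF replicate 1 (adjusted p = 0.177) or DMF replicate 3 (adjusted p = 0.122), with log2FC of 0.30 to 0.37. It held without Ctrl replicate 3, with a log2FC of 0.40 (adjusted p = 0.0351, limma). These fits had batch and not replicate number as a covariate. Blocking libraries by replicate number, with none left out, gave Mafg an adjusted p of 0.00076 (limma). That fit called 27.2% of all genes higher. Mafg overlaps Sirt7, a gene on the same strand with a mean of 1318, in 124 bases at its 3′ end, and how the authors assigned reads in shared bases is not stated in these sources.

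Mafk (ENSMUSG00000018143, chr5:139791513-139802653, forward strand) was at 637, 394 and 448 in Ctrl, at 717, 529 and 738 with DMF and at 500, 386 and 534 with DMF + GSH. The groups overlapped, since Ctrl replicate 1 exceeded DMF replicate 2, but DMF was higher than Ctrl within each number, by 0.17, 0.42 and 0.72 on the log2 scale. The log2FC was 0.44 (SE 0.163, adjusted p = 0.069, limma), a fold of 1.36 (95% interval 1.05 to 1.74). The adjusted p was above 0.1 without the batch term (0.115), without Ctrl replicate 2 (0.227), Ctrl replicate 3 (0.103), DMF replicate 1 (0.152) or DMF replicate 3 (0.26). In the fits without these libraries the log2FC was 0.34, 0.44, 0.50 and 0.29, in the same order. With libraries blocked by replicate number, both small MAF genes passed, Mafk with an adjusted p of 0.00091 (limma). This fit called 27.2% of all genes higher. Without Ctrl replicate 3 the blocked fit gave Mafk a log2FC of 0.29 (adjusted p = 0.0169, limma). Other single libraries were not left out of the blocked fit.

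Hmox1 (ENSMUSG00000005413, chr8:75093621-75100589, forward strand), the heme-degrading enzyme, was at 60.3, 60.4 and 86.7 in Ctrl and at 84.6, 95.9 and 75.5 with DMF. It was higher with DMF in replicates 1 and 2, by 0.48 and 0.66 on the log2 scale, and lower in replicate 3, by 0.20. The log2FC was 0.31 (95% interval −0.10 to 0.73, adjusted p = 0.229, limma). Ctrl replicate 3, the library with the macrophage markers, had the highest Hmox1 of the Ctrl group, and macrophages are a known site of Hmox1 expression. The same library was also the highest of its group in Mafg, Nqo1, Fth1 and Ftl1, and not in the other members. Without this library the log2FC was 0.46 (adjusted p = 0.0935, limma), and without Ctrl replicate 2 it was 0.18 (adjusted p = 0.568, limma). The part of the macrophage markers in this result was not tested. In bulk RNA, fewer cells of a type and less RNA per cell cannot be told apart.

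Nqo1 (ENSMUSG00000003849, chr8:107388225-107403206, reverse strand), the quinone reductase, was close to the detection limit, at 9.35, 5.57 and 14.2 in Ctrl, at 16.9, 16.3 and 10.7 with DMF and at 9.9, 5.2 and 9.72 with DMF + GSH. These values rest on 25 reads in the 3 Ctrl libraries together, 46 with DMF and 26 with DMF + GSH. As for Hmox1, DMF was higher in replicates 1 and 2 and lower in replicate 3, and Ctrl replicate 3 was the highest of its group. The log2FC of 0.60 (SE 0.412, 95% interval −0.32 to 1.52) did not pass (adjusted p = 0.295, limma). It was 0.97 without Ctrl replicate 3 (adjusted p = 0.0938, limma) and 0.31 without Ctrl replicate 2 (adjusted p = 0.66, limma). The ratio of reads per depth was 1.58, with an exact binomial 95% interval of 0.948 to 2.68 that covers counting error only. The call without Ctrl replicate 3 depended on the pairing, since with libraries blocked by replicate number the log2FC was 0.93 and the adjusted p 0.115 (limma).

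**Figure D2:**
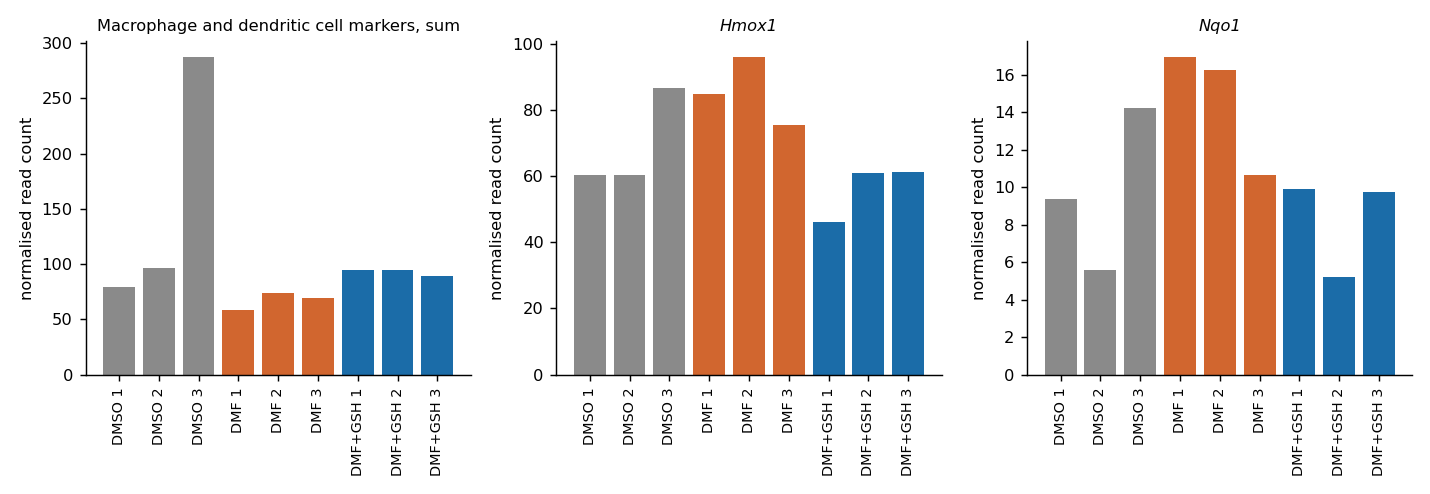
Summed normalised read counts of the 7 macrophage and dendritic cell markers in the table (left) and those of Hmox1 (middle) and Nqo1 (right), with 1 bar per library from 0 and colours for the 3 conditions. The marker sum is highest in Ctrl replicate 3 at 287, and the same library has the highest Ctrl value of Hmox1 (86.7) and of Nqo1 (14.2). Mafg, Fth1 and Ftl1, not drawn here, also have their highest Ctrl value in this library. Nfe2l2, Keap1, Bach1, Mafk and Slc7a11 do not.

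The ferritin chains were the most abundant members per kilobase of exon, a scale given further on. Fth1 (ENSMUSG00000024661, chr19:9980598-9985098, forward strand) was at 4421, 3757 and 5199 in Ctrl, at 5070, 4638 and 5224 with DMF and at 4467, 4403 and 5048 with DMF + GSH. DMF was higher in each number, by 0.20, 0.30 and 0.01 on the log2 scale, and replicate 3 showed almost no difference. The log2FC of 0.17 (95% interval −0.09 to 0.42) did not pass (adjusted p = 0.287, limma), whereas it did with libraries blocked by replicate number (the replicate block; adjusted p = 0.0251, limma), under which 27.2% of all genes were called higher. Without Ctrl replicate 3 it was 0.30 (adjusted p = 0.0453, limma), and without Ctrl replicate 2 it was 0.04 (adjusted p = 0.815, limma). Ftl1 (ENSMUSG00000050708, chr7:45457944-45459884, reverse strand) was at 454, 392 and 472 in Ctrl, at 497, 526 and 512 with DMF and at 459, 453 and 497 with DMF + GSH. All DMF libraries were above all Ctrl libraries. The log2FC was 0.22 (SE 0.0917, adjusted p = 0.0949, limma), a fold of 1.17 (95% interval 1.01 to 1.35). It was 0.28 without Ctrl replicate 3 (adjusted p = 0.0555, limma) and 0.13 without Ctrl replicate 2 (adjusted p = 0.332, limma).

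The call for Ftl1 lay close to the limit. It was lost with no minimum on the mean (adjusted p = 0.181, limma), by DESeq2 (adjusted p = 0.173) and without any one of Ctrl replicates 1 and 2, DMF replicates 1, 2 and 3 and DMF + GSH replicates 1 and 2 (adjusted p of 0.117 to 0.332, limma). In those fits with 1 library left out the log2FC of Ftl1 was 0.13 to 0.27. Both ferritin genes have processed copies elsewhere in the genome, of which Fth-ps2 had a mean of 4.07 and Ftl1-ps1 one of 0.361, so that reads shared with such copies make the values of Fth1 and Ftl1 uncertain to an unknown degree. Without Ctrl replicate 3, Mafg, Hmox1, Fth1 and Ftl1 were called higher, 4 of the 8 tested members other than Nqo1, and so was Nqo1, where 22.7% of all genes were called higher and 20.4% lower. Ctrl replicate 3 was the highest Ctrl library in each of these genes, so that leaving it out lowers their Ctrl level. For Fth1 the log2FC without this library was 0.30 in that fit and 0.24 with the replicate block. With the replicate block and without this library Mafk was called as well and Nqo1 was not, which makes 5 of the 8, where 24.7% of all genes were called higher and 22.5% lower.

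Slc7a11 (ENSMUSG00000027737, chr3:49892526-50443614, reverse strand), the cystine transporter, was the lowest member, at 7.28, 3.72 and 7.11 in Ctrl, at 9.52, 12 and 13.6 with DMF and at 4.4, 2.23 and 3.89 with DMF + GSH. All DMF libraries were above all others. Per library the values rest on 4 to 7 reads in Ctrl, 9 to 14 with DMF and 3 to 4 with DMF + GSH, and on 64 reads in all. In a fit with no minimum the log2FC between DMF and Ctrl was 0.88 (SE 0.506, adjusted p = 0.342, limma), where 7.24% of 26629 genes were called higher. Without Ctrl replicate 3 it was 1.05 (adjusted p = 0.251, limma). The ratio of reads per depth was 1.98, with a counting interval of 1.08 to 3.81. At such counts the fold on the log2(count + 1) scale is understated.

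Addition of GSH to DMF was compared with DMF alone to see which differences glutathione took back. The same DMF libraries serve here as in the comparison with Ctrl, so that a member high in DMF by chance would appear higher in the one and lower in the other. Mafg, Mafk and Hmox1 were lower with DMF + GSH at an adjusted p under 0.1, which is 3 of 9, and no member was higher, where 17.6% of all genes were called lower and 15.7% higher. No member passed the stricter threshold, which 0.543% of all genes passed. By limma 3 members had an unadjusted p under 0.05, as did 4392 of the 11599 genes tested. By edgeR and DESeq2 the stricter rule also called 0 members, where it called 66 and 384 of all genes. The median log2FC was −0.12, with 7 of 9 values below 0, against 0.00 over all genes. In Mafg, Hmox1 and Ftl1, 3 of the 8 members other than Nqo1, all DMF + GSH libraries were below all DMF libraries, which was so for 20.5% of all genes. It was so for Nqo1 too, which was tested only through its DMF libraries.

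Mafg fell by 0.43 on the log2 scale between DMF and DMF + GSH (SE 0.111, adjusted p = 0.0244, limma), a fold of 0.741. The paired differences were −0.58 in replicate 1, −0.50 in replicate 2 and −0.22 in replicate 3. Mafk fell by 0.48 (SE 0.163, adjusted p = 0.0587, limma), with paired differences of −0.52, −0.45 and −0.47. Hmox1 was at 46.2, 60.9 and 61.3 with DMF + GSH, below each DMF library, and fell by 0.60 (SE 0.187, adjusted p = 0.0446, limma), a fold of 0.659 (95% interval 0.494 to 0.88). Neither group of this comparison holds Ctrl replicate 3, and Csf1r was at most 5.83 in all 6 libraries and Lyz2 at most 10.7. The summed macrophage and dendritic cell markers were 58.2 to 73.6 with DMF and 89.5 to 95.03 with DMF + GSH, without overlap. With the replicate block, Cd68 was higher with DMF + GSH than with DMF. The part of these markers in the fall of Hmox1 was not tested. Each of the 3 calls was lost without DMF replicate 1, DMF + GSH replicate 1 or DMF + GSH replicate 2, and that of Mafk also without DMF replicate 3. The adjusted p then lay between 0.105 and 0.142 for Mafg, between 0.154 and 0.244 for Mafk and between 0.117 and 0.216 for Hmox1 (limma). In these fits the log2FC was −0.38 to −0.35 for Mafg, −0.54 to −0.33 for Mafk and −0.63 to −0.49 for Hmox1. These fits had batch and not replicate number as a covariate. Blocking by replicate number with all libraries gave adjusted p of 0.00015 for Mafg, 0.00047 for Mafk and 0.0132 for Hmox1 (limma). That fit called 25.3% of all genes lower.

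The remaining targets did not pass in this comparison with the minimum of 10. Nqo1 had a log2FC of −0.77 (95% interval −1.69 to 0.15, adjusted p = 0.197, limma), with a ratio of reads per depth of 0.553 and a counting interval of 0.328 to 0.913. By edgeR with the replicate block Nqo1 passed (adjusted p = 0.0925). Fth1 had a log2FC of −0.10 (adjusted p = 0.542) and Ftl1 one of −0.12 (adjusted p = 0.346). Slc7a11 was lower with DMF + GSH in the fit with no minimum, by a log2FC of −1.52 (SE 0.506, adjusted p = 0.0877, limma), where 6.00% of 26629 genes were called lower. Its reads numbered 37 in the DMF libraries and 11 in the DMF + GSH libraries, a ratio per depth of 0.291 with a counting interval of 0.134 to 0.582. The call of Slc7a11 was lost without Ctrl replicate 1 and without any single library of DMF or DMF + GSH (adjusted p of 0.105 to 0.307, limma). Nfe2l2, Keap1 and Bach1 had log2FC of 0.05, −0.10 and 0.13, with adjusted p of 0.717, 0.304 and 0.444 (limma).

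Between DMF + GSH and Ctrl no member passed by either rule, and the share of all genes called was 0% by the stricter rule and 0% in each direction at an adjusted p under 0.1. An unadjusted p under 0.05 by limma was seen for 0 of the 9 members and for 222 of the 11599 genes tested. At either threshold edgeR and DESeq2 called 0 members and 0 of all genes. The log2FC ranged from −0.29 for Hmox1 (95% interval −0.70 to 0.13) to 0.10 for Ftl1 (95% interval −0.11 to 0.30). For Mafg it was −0.07 (95% interval −0.32 to 0.17) and for Mafk −0.04 (95% interval −0.41 to 0.32), each with an adjusted p of 1 by limma. Slc7a11 was at a log2FC of −0.63 in the fit with no minimum (95% interval −1.71 to 0.45, adjusted p = 0.882, limma). Its DMF + GSH library was below the Ctrl library in each of the 3 numbers, though the groups overlapped.

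**Figure D3:**
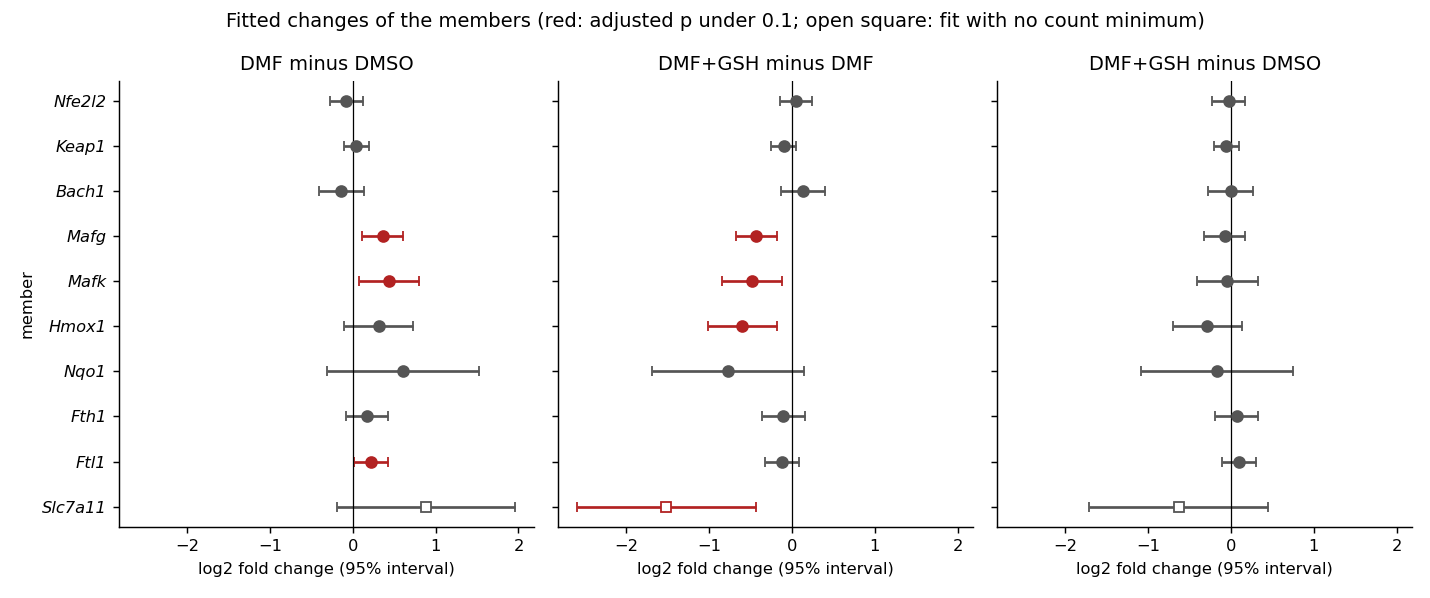
Fitted log2 fold changes of the 10 members with 95% intervals in the 3 comparisons (left to right DMF against Ctrl, DMF + GSH against DMF, DMF + GSH against Ctrl), Ctrl being named DMSO. Red marks an adjusted p under 0.1, and the open square is Slc7a11 from the fit with no minimum. Mafg and Mafk are right of 0 in the first panel and left of it in the second, and no member is red in the third.

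Levels of the members were compared per kilobase of exon (normalised read count per kb, lengths from GENCODE vM21, which include exons of minor transcripts). In Ctrl the means per kb fell in the order Fth1 (1285), Ftl1 (328), Keap1 (199), Nfe2l2 (157), Mafk (126), Mafg (108), Bach1 (43.9), Hmox1 (39.5), Nqo1 (6.26) and Slc7a11 (0.433). The ranges of the 3 Ctrl libraries overlapped between the neighbours Nfe2l2 and Mafk, Mafk and Mafg, and Bach1 and Hmox1, and not between the other neighbours. With DMF the level of Mafk per kb, at 170, was above that of Nfe2l2, at 148, with overlapping ranges, and Hmox1, at 48.7, was above Bach1, at 39.7, also with overlapping ranges. With DMF + GSH the order was that of Ctrl, with Mafk at 121 and Hmox1 at 32.1 per kb. Patterns of other genes were compared with that of Nqo1, the tested member with the largest log2FC between DMF and Ctrl, a rank that rests on the DMF libraries through which it reached the minimum. The genes most like it over the 9 libraries, of 11598 compared, were Mtbp (Pearson's r = 0.96), Trmt11 (r = 0.94) and Cdc6 (r = 0.92). These are the highest of many values and rest on an Nqo1 level of 6 to 19 reads per library.

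The relatives of the members in the same protein families differed in direction. Of 5 further CNC and small MAF genes, 3 were tested, and 2 were higher and 1 lower with DMF, too few to set against the 19.9% and 18.3% of all genes. Nfe2l1, encoding NRF1, a relative of NRF2 in the membrane of the endoplasmic reticulum, was higher with DMF (log2FC 0.38, SE 0.0713, adjusted p = 0.0077, limma), with 1148, 1215 and 1324 normalised read counts in Ctrl and 1511, 1587 and 1683 with DMF. Maff, the third small MAF gene, was higher with a log2FC of 0.53 (adjusted p = 0.0797, limma), at 58.3 to 86.3 in Ctrl and 66.8 to 126 with DMF, and did not pass without Ctrl replicate 3 (adjusted p = 0.13, limma). Bach2, the BACH1 relative that restrains effector differentiation of T cells, was lower with a log2FC of −0.54 (SE 0.135, adjusted p = 0.0179, limma), with 3533, 3849 and 3345 in Ctrl and 2472, 2856 and 2089 with DMF. With DMF + GSH Nfe2l1 was lower than with DMF (log2FC −0.35, adjusted p = 0.0134, limma) and Bach2 higher (log2FC 0.46, adjusted p = 0.0374, limma), and Maff did not pass (log2FC −0.26, adjusted p = 0.381, limma). Nfe2 and Nfe2l3 were below the minimum, with means of 8.09 and 2.44.

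Of 9 genes of the machinery that turns over NRF2, 2 were higher with DMF and 0 lower, a share close to the 19.9% of all genes called higher. Cul1, a cullin of the SCF ligases, had a log2FC of 0.25 (adjusted p = 0.0549, limma) and Dpp3, a peptidase that binds KEAP1, one of 0.26 (adjusted p = 0.0381, limma). Cul3, the cullin that works with KEAP1, did not pass (log2FC 0.12, adjusted p = 0.244, limma), whereas it did with the replicate block (adjusted p = 0.0706) and without Ctrl replicate 3 (adjusted p = 0.0713). With the replicate block 3 genes were higher and 1 lower, where 27.2% of all genes were called higher and 24.8% lower. Between DMF + GSH and DMF 1 was higher and 1 lower, where 15.7% and 17.6% of all genes were, and 1 higher and 3 lower with the replicate block, where 23.5% of all genes were called higher and 25.3% lower.

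Other NRF2 targets, for the most part antioxidant and NADPH-producing enzymes, were listed from general knowledge. As the members and lists were chosen with earlier results of these data known, their counts beside shares of all genes are descriptions. Of 18 listed 15 were tested, and 10 were higher and 2 lower with DMF at an adjusted p under 0.1, with a median log2FC of 0.26 against 0.01 over all genes, of which 19.9% were called higher and 18.3% lower. Srxn1 (sulfiredoxin, which restores oxidised peroxiredoxins) passed the stricter threshold, with 44.7, 39.9 and 48.3 normalised read counts in Ctrl. It was at 180, 117 and 126 with DMF, against 60.5, 50.5 and 44.7 once GSH was added. The fitted log2FC was 1.63 (SE 0.17, adjusted p = 0.00173, limma), and every DMF library was above every other library. Txnrd1 (thioredoxin reductase) had a log2FC of 0.84 (adjusted p = 0.011, limma). It passed the stricter threshold with the replicate block (adjusted p = 2.16e-08, limma), as 6.80% of all genes did, and without Ctrl replicate 3 (log2FC 1.04, adjusted p = 0.00412, limma), as 5.86% did. Txn1 (thioredoxin) had a log2FC of 0.51 (adjusted p = 0.00543, limma). Idh1, the cytosolic NADP-dependent isocitrate dehydrogenase, was lower, with a log2FC of −0.51 (adjusted p = 0.0385, limma). With the replicate block, under which 27.2% of all genes were higher and 24.8% lower, 10 were higher and 3 lower, the third being Ephx1, an epoxide hydrolase (log2FC −0.28, adjusted p = 0.0138, limma). Between DMF + GSH and DMF, 9 of the 15 were lower and 1 higher, where 17.6% of all genes were called lower and 15.7% higher, and 10 were lower and 3 higher with the replicate block, where these shares were 25.3% and 23.5%. The log2FC were −1.41 for Srxn1 (adjusted p = 0.0063, limma) and −0.77 for Txnrd1 (adjusted p = 0.0182, limma). Srxn1 passed the stricter threshold there, and with the replicate block so did Txnrd1, as did 5.69% of all genes. Gsta4, Me1 and Osgin1 were below the minimum, with means of 2.91, 0.211 and 7.9.

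**Figure D4:**
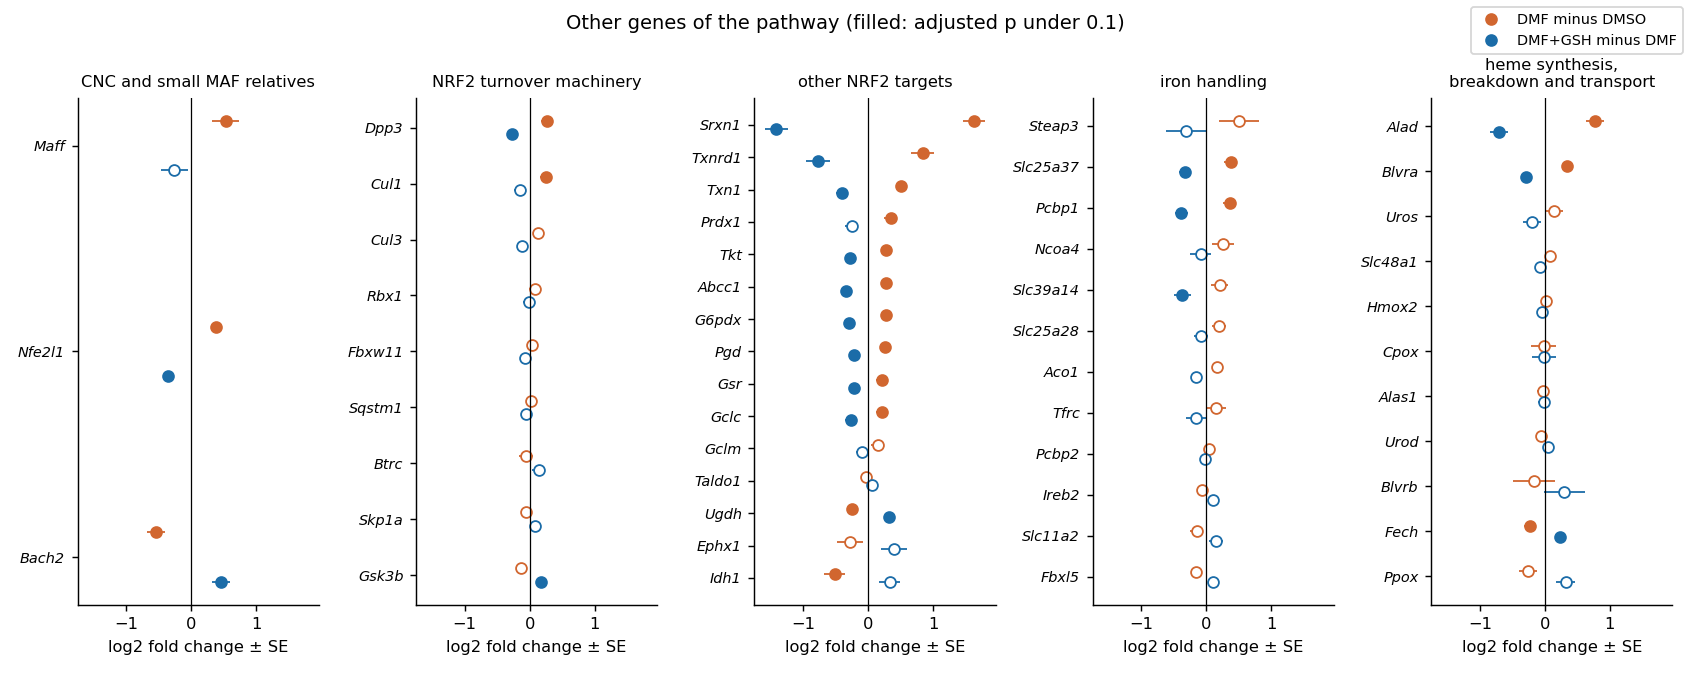
Log2 fold changes ± SE of the tested genes of 5 lists, DMF against Ctrl (orange) and DMF + GSH against DMF (blue), filled where the adjusted p was under 0.1. Srxn1 lies farthest from 0 in both comparisons, at 1.63 and −1.41, and Alad farthest in the heme list.

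Of 14 genes of iron handling other than Fth1 and Ftl1 12 were tested, and 2 were higher and 0 lower with DMF. These were Slc25a37, the mitochondrial iron importer mitoferrin 1 (log2FC 0.37, adjusted p = 0.0181, limma), and Pcbp1, a chaperone that delivers iron to ferritin (log2FC 0.36, adjusted p = 0.028, limma). The share of 2 in 12 is close to the 19.9% of all genes called higher. With the replicate block 5 were higher and 1 lower, where 27.2% and 24.8% of all genes were. Both genes were lower with DMF + GSH than with DMF, with log2FC of −0.33 for Slc25a37 (adjusted p = 0.0343, limma) and −0.38 for Pcbp1 (adjusted p = 0.0279, limma), and in that comparison 3 of 12 were lower and 0 higher, where 17.6% of all genes were lower, or 5 lower with the block, where 25.3% were. Tfrc, the transferrin receptor that takes up iron, did not pass (log2FC 0.15, adjusted p = 0.502, limma), whereas it did with the replicate block (adjusted p = 0.0327, limma). The mitochondrial ferritin gene Ftmt was at 0 in all libraries and the iron exporter gene Slc40a1 had a mean of 1.08.

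In the heme list 11 of 12 genes were tested, of which 2 were higher and 1 lower with DMF, with a median log2FC of −0.02, where 19.9% of all genes were called higher and 18.3% lower. Alad, the second enzyme of heme synthesis, passed the stricter threshold, with 248, 259 and 333 in Ctrl. It was at 474, 455 and 499 with DMF, against 248, 274 and 362 in the libraries with GSH. The log2FC was 0.77 (SE 0.138, adjusted p = 0.00686, limma), and every DMF library was above all others. Blvra, the biliverdin reductase that acts after HMOX1, was higher (log2FC 0.34, adjusted p = 0.0144, limma). Fech, which inserts iron in the last step, was lower (log2FC −0.23, adjusted p = 0.0709, limma), though not without Ctrl replicate 3 (adjusted p = 0.144, limma). Alas1, which starts the pathway, did not pass (log2FC −0.03, adjusted p = 0.816, limma), and neither did Hmox2, the constitutive heme oxygenase (log2FC 0.02, adjusted p = 0.882, limma). With DMF + GSH, Alad was lower than with DMF by a log2FC of −0.71 (adjusted p = 0.0124, limma), and Blvra was lower and Fech higher, 1 higher and 2 lower in all, where 15.7% of all genes were higher and 17.6% lower. With the replicate block 2 of 11 were higher and 2 lower with DMF, below the 27.2% and 24.8% of all genes, and 2 were higher and 2 lower with DMF + GSH than with DMF, below 23.5% and 25.3%. Without Ctrl replicate 3, 1 of the further CNC and small MAF genes was higher and 1 lower between DMF and Ctrl. The counts were then 3 and 0 for the turnover machinery, 10 and 2 for the other NRF2 targets, 5 and 0 for iron handling and 2 and 1 for the heme list, where 22.7% of all genes were called higher and 20.4% lower.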

How the data were processed

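Per the labels, naive CD8+ T cells of C57BL/6 mice were cultured as Tc17 cells, and poly(A) libraries were read as single 50 bp reads. The labels give 300 ng of RNA, an integrity number above 9 and Trizol, and the methods 400 ng, above 8 and Extrazol. The authors aligned reads to GRCm38 with STAR 2.4.0b (submitters' processing notes), counted them with featureCounts and deposited a signal per gene, read counts divided by a size factor per library. Their handling of strand, and of reads that fit several genes, is not stated in these sources. Columns with the authors' own fold changes and p-values of Ctrl against DMF were not used. All values above 0 (100%) were whole multiples of 1 read (tolerance 0.01), which gave the depth of 7671772 to 14511926 reads per library. No 2 libraries were identical.

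The test was limma-trend (limma 3.58.1, R 4.3.3) on log2(value + 1), with group and batch, as in the authors' model, and all 9 libraries in 1 fit, over 11599 genes with a mean of at least 10. P-values were adjusted by Benjamini-Hochberg, and calls needed an adjusted p under 0.01 and a log2FC of 0.75 or more in size, or only an adjusted p under 0.1. Intervals of log2FC and of read ratios are at 95%. Replicate numbers were taken as pairs because libraries of the same number deviated together from their group means (r = 0.447 to 0.578 in 9 pairs, against −0.471 to −0.0621 in 18 pairs of different numbers). The replicate block is therefore given where it changed a call of a member or a list's count. Alternatives were a pseudocount of 0.5 or 4, a minimum of 50 or none, TMM, no batch term, the block, edgeR 4.0.16 and DESeq2 1.42.0 on the recovered reads, and each library left out. The block combined with no minimum, with edgeR or without Ctrl replicate 3, and the fits of Slc7a11 with no minimum and 1 library left out, were chosen after seeing the data.

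All 10 members are given with every library. Of the pathway lists, genes with an adjusted p under 0.1 between DMF and Ctrl were named, at most 4 per list with the largest change, with untested genes, and the 3 genes most correlated with the tested member of largest change. Cul3, Tfrc, Ephx1, Alas1 and Hmox2 were named after their values were seen. The members and lists were chosen with earlier results of these data known. Results for some single genes are not reported here. Flvcr1 and Adgre1 were not found by symbol. Figures were made with Matplotlib 3.10.9.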

Additional observations from a re-analysis of the deposited data

How the results depend on the processing

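Of the fitted changes of members under the alternatives, 549 kept their side of the threshold of 0.1, 35 lost their call, 9 gained one, 1 uncalled value moved by more than its error, and 0 changed sign while called. With 1 library left out, 0 to 5 members had an adjusted p under 0.1 between DMF and Ctrl. Between DMF + GSH and DMF the number was 0 to 3. The 5 members were called without Ctrl replicate 3, where 22.7% of all genes were called higher and 20.4% lower. Shares of all genes at 0.1 in the remaining fits of this kind are not given, so their member counts are descriptions only. In these comparisons 2 to 681 and 0 to 481 of all genes passed the stricter threshold, against 335 and 63 with all libraries. Between DMF and Ctrl, the block without Ctrl replicate 3 called 5 members, where 24.7% of all genes were called higher and 22.5% lower. For all genes past the stricter threshold, DMF against Ctrl gave 789 with the replicate block, 821 with the block and no minimum, 795 with the block and edgeR, 815 with the block and no Ctrl replicate 3, and 554 by DESeq2. DMF + GSH against DMF gave 660, 637, 655 and 671 in these 4 block fits, 384 by DESeq2, 273 with no minimum and 28 with no batch term. DMF + GSH against Ctrl gave 1 with the block, 7 with the block and no minimum and 1 with the block and edgeR. With all libraries and limma, the replicate pairing added the call of Fth1 between DMF and Ctrl and changed no other call of a tested member. Without Ctrl replicate 3 it added Mafk and removed Nqo1, and with edgeR it added Nqo1 between DMF + GSH and DMF (adjusted p = 0.0925). Nqo1 and Slc7a11 rest on 97 and 64 reads in all.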
